A study of Mus musculus with 2 samples.

Results

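The 37 RNAs encoded by the mouse mitochondrial genome were followed in single-nucleus RNA sequencing of the ventrolateral periaqueductal gray (vlPAG), a midbrain region. Members were all genes whose symbol starts with mt-, which gave 2 ribosomal RNAs (rRNAs), 13 messenger RNAs (mRNAs) and 22 transfer RNAs (tRNAs) among the 55450 genes counted. The mice were wild-type (WT) C57/BL6J animals, 8 weeks old when the diets began, that were fed either a normal food diet (NFD) or a high-fat diet (HFD) for 7 weeks. The vlPAG was dissected from brain slices, stored frozen and lysed for nuclei, and 1 library per diet was made with the 10x 3′ kit from 18 mice on that diet, and the labels do not tie nuclei to single mice. There is therefore no replicate of either diet, the diet cannot be told apart from the library, and no test was made. Values are molecules (unique molecular identifiers, UMIs) per 1000000 UMIs of the nuclei counted (CPM), and every interval is a 95% interval that covers counting error only.

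Both strands of the circular mitochondrial genome are transcribed by the polymerase Polrmt into long precursors. These are cut, mostly at the tRNAs between the genes, into rRNAs of the mitochondrial ribosome, tRNAs for its code, and mRNAs for subunits of respiratory complexes I, III, IV and V. Poly(A) tails are added to most mRNAs, and short ones to the rRNAs, so a 3′ kit primed on A stretches can read those. Mature tRNAs carry no such tail. The RNA lies inside mitochondria, so its level in a preparation of nuclei also depends on how much cytoplasm comes along with each nucleus.

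After the limits of more than 500 UMIs and under 20% mt- UMIs, 7500 NFD and 6322 HFD nuclei were retained, with medians of 4504.5 and 7347.5 UMIs. A further 124 NFD and 491 HFD barcodes lay at or above 20%. Only 13 barcode sequences occurred in both libraries, none of them at or above 20% in both. Cell groups were built from clusters made without the mt- genes and are called X-like from their markers. A cluster with markers of cerebellar granule neurons, which the vlPAG label does not cover, held 769 HFD and 10 NFD nuclei, and its nuclei had few mt- UMIs (mean 2.67 and 1.90 per nucleus). Of the 490 HFD nuclei with no mt- UMI at all, 298 lay in this cluster.

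The 3′ ends of the RNAs with the most UMIs are shown first, because the kit reads from A stretches at or near the end. They come from the GENCODE transcripts of the GRCm38 build and are written 5′ to 3′. In the mRNAs the capitals mark the stop codon, or the part of it that the DNA encodes. The genes mt-Cytb (chrM:14145-15288) and mt-Nd4 (chrM:10167-11544) encode 1 base of their stop codon and rely on the poly(A) tail for the rest. As annotated, mt-Nd1 (chrM:2751-3707) and mt-Nd2 (chrM:3914-4951) hold all of it. Their stop codons overlap the next tRNA on the same strand, mt-Ti from 3706 and mt-Tw from 4950. Whether the cut mRNA keeps the overlapping bases was not tested. In mt-Rnr2 (chrM:1094-2675), the large rRNA, the capitals mark the first of the longest runs of A in the last 60 bases. A later run of the same length, 4 bases, is left in lower case. All 5 lie on the plus strand.
mt-Cytb: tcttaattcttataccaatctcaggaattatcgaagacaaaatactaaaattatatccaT
mt-Nd4: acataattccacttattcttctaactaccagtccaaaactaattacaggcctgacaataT
mt-Nd1: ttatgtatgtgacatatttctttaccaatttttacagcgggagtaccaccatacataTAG
mt-Nd2: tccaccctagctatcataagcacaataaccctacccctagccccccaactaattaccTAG
mt-Rnr2: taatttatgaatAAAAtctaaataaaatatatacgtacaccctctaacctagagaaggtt

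Some mitochondrial mRNA genes have annotated copies in the nuclear genome, and a read that matches 2 places equally well is not counted by the usual rule of the counting tool. An annotated block on the minus strand of chromosome 1 holds copies of mt-Co2, mt-Atp6, mt-Co3, mt-Nd3 and mt-Nd4l in the same order, with spacings from start to start of 914, 680 and 852 bases in both places and of 418 on chrM against 419 in the block for the last pair. Over the aligned bases, 4 of these 5 genes were identical to their copy (681 bases of mt-Co2, 678 of mt-Atp6, 783 of mt-Co3 and 294 of mt-Nd4l). In mt-Nd3 the copy differed at 1 of 345 bases (T3C, counted from the first base of the gene). The last 60 bases of mt-Co2 before its stop codon (chrM:7634-7693, plus strand) are shown beside the same stretch of its copy Gm28661 (chr1:24614885-24614944, minus strand) as the example, with differences in capitals, of which there were 0.
mt-Co2: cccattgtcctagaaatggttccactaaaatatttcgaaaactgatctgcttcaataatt
Gm28661: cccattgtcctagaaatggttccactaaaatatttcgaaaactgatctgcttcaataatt

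The share of each gene that shares 50-base stretches with an annotated nuclear transcript was 98.3% or more in these 5 genes, 74.9% in mt-Co1 (all of its last 300 bases), 63.6% in mt-Nd4 (none of its last 300 bases), 24.3% in mt-Nd5, 17.2% in mt-Nd2, 4.11% in mt-Rnr2 and 0% in mt-Rnr1, mt-Cytb, mt-Nd1, mt-Nd6 and mt-Atp8. The gene mt-Atp8 lies between mt-Co2 and mt-Atp6, where the chromosome 1 block has no annotated transcript, and that gap was not searched. Of the last 300 bases, 43% in mt-Nd2 and 18% in mt-Nd5 were shared in this way. The levels of the 5 genes with a nearly whole copy and of mt-Co1 are therefore uncertain, and in part those of mt-Nd2 and mt-Nd5. How many reads went uncounted was not tested.

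Summed over all members, mt- RNA took 5519 CPM (5496 to 5542) in the NFD library and 4814 CPM (4796 to 4832) in the HFD library, from 226520 and 262781 UMIs. The log2 ratio of HFD to NFD was -0.20 (-0.21 to -0.19). For the rRNAs, 1590 CPM in NFD stood against 1205 in HFD, or -0.40 (-0.42 to -0.38). The mRNAs measured 3920 and 3596 CPM, at -0.12 (-0.13 to -0.12). The tRNAs, with 348 and 671 UMIs, went the other way at 8.48 and 12.3 CPM, or 0.54 (0.35 to 0.73). The classes thus did not share 1 direction in these libraries. The tRNA part of mt- UMIs was largest in nuclei under 0.1% mt-, at 1.28% in NFD and 2.20% in HFD. At 2% to 5% mt- it was 0.0347% and 0.0863%. Nuclei under 0.1% were 18.7% of NFD and 28.2% of HFD barcodes, and their part in the tRNA ratio was not tested.

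The direction of the summed level was not stable. It was 0.018 with each nucleus weighted equally, 0.13 after thinning to 2000 UMIs, 0.45 in nuclei of 2000 to 8000 UMIs, 0.34 with no mitochondrial limit and -0.37 with a limit of 5%. The mRNA ratio also turned with equal weights, after thinning, in nuclei of 2000 to 8000 UMIs and with no limit, and the rRNA ratio turned in nuclei of 2000 to 8000 UMIs (0.32) and with no limit (0.25). The tRNA ratio stayed above 0 under all 11 settings, from 0.48 to 0.99.

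**Figure D1:**
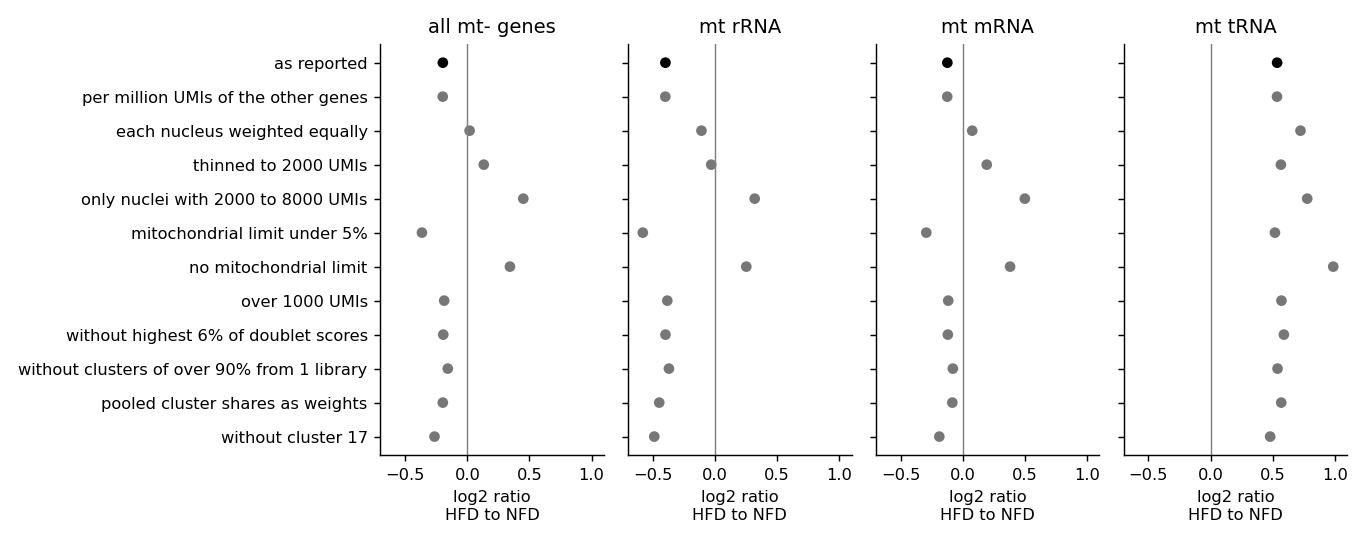
The log2 ratio of HFD to NFD is plotted on the x axis for all mt- genes and for each RNA class, with 1 row per setting and the reported value in black. The values for all mt- genes run from -0.37 to 0.45 and cross 0, whereas the tRNA values lie between 0.48 and 0.99.

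The rRNAs come first on the plus-strand precursor, and both were lower in the retained HFD nuclei, though with no mitochondrial limit mt-Rnr1 was at 0.36 and mt-Rnr2 at 0.22. The large rRNA mt-Rnr2 was at 1223 CPM for NFD against 906 for HFD (50203 and 49433 UMIs), with a ratio on the log2 scale of -0.43 (-0.45 to -0.42). The small rRNA mt-Rnr1 (chrM:70-1024) was at 367 and 299.9 CPM, which gave -0.29 (-0.32 to -0.26). Per kilobase the large rRNA stood at 773 CPM in NFD and 572 in HFD, above the small one at 384 and 314.

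Of the mRNAs, mt-Cytb, which encodes the only mitochondrially made subunit of complex III, had the highest level. Its 55744 UMIs in NFD and 67365 in HFD gave 1358 and 1234 CPM, or -0.14 (-0.15 to -0.12) on the log2 scale, which turned to 0.33 with no mitochondrial limit. Per kilobase it also led, with 1187 CPM in NFD and 1079 in HFD. The order of the next genes per kilobase was mt-Nd1 (822 and 672), mt-Nd2 (654 and 599) and mt-Nd4 (445 and 455).

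The 7 mt-Nd genes encode subunits of complex I, which takes electrons from NADH, and together had 2329 CPM in NFD and 2114 in HFD. Their ratios differed among themselves. In NFD and HFD, mt-Nd1 had 786 and 643 CPM (log2 ratio -0.29), mt-Nd2 had 679 and 621 (-0.13), and mt-Nd4 had 613 and 628 (0.03). The gene mt-Nd5 (chrM:11742-13565) was at 183 CPM for NFD against 139 for HFD, or -0.39 (-0.43 to -0.34). In contrast, mt-Nd3 (chrM:9459-9806) was at 37.3 against 52.2 CPM, or 0.48 (0.39 to 0.57), and mt-Nd4l (chrM:9877-10173) had 7.58 and 5.75 CPM, at -0.40 (-0.63 to -0.17). Both of these short genes are among the 5 with an almost identical nuclear copy, and the end of mt-Nd4l overlaps the start of mt-Nd4. The gene mt-Nd6 (chrM:13552-14070) on the minus strand had 23.2 and 25.2 CPM, and the interval of its ratio included 0 (0.11, -0.01 to 0.23). With no mitochondrial limit the negative ratios turned, to 0.18 for mt-Nd1, 0.41 for mt-Nd2, 0.14 for mt-Nd5 and 0.072 for mt-Nd4l.

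Complex IV, cytochrome c oxidase, takes 3 mitochondrial subunits. The gene mt-Co1 (chrM:5328-6872) was nearly level, with 167 CPM for NFD against 165 for HFD, or -0.02 (-0.06 to 0.03). Only 182 and 293 UMIs were assigned to mt-Co2, whose ratio was 0.28 (0.0037 to 0.55), or 4.43 and 5.37 CPM. The gene mt-Co3 (chrM:8607-9390) had 20.5 and 27.4 CPM, at 0.42 (0.30 to 0.55). Of the complex V genes, which encode subunits of ATP synthase, mt-Atp6 (chrM:7927-8607) was at 28.7 CPM for NFD against 38.7 for HFD, or 0.44 (0.33 to 0.54). Its overlapping neighbour mt-Atp8 (chrM:7766-7969) had 12.5 and 11.5 CPM, at -0.12 (-0.29 to 0.05). With no mitochondrial limit mt-Co1 was at 0.60 and mt-Atp8 at 0.41, and mt-Co2, mt-Co3 and mt-Atp6 stayed above 0.

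Together the 5 genes with a nearly identical nuclear copy were at 98.4 CPM for NFD against 129 for HFD, or 0.40 (0.34 to 0.45), with mt-Nd4l as the exception below 0. The 4 mRNAs without an annotated copy had 2180 and 1913 CPM, at -0.19. They include mt-Atp8, for which a copy in the unsearched gap of the chromosome 1 block was not tested. The copies themselves were also counted, at 184 UMIs in NFD and 374 in HFD over the 7 listed for chromosome 1. Of these, Gm28437 (copy of mt-Co3) had 48 and 93 UMIs, at 0.54 (0.03 to 1.08), and Gm28438 (copy of mt-Nd3) had 61 and 137 UMIs, at 0.76 (0.31 to 1.22). Both copies and the genes they match were thus higher in the HFD library, whereas Gm10222 (copy of mt-Nd4l) had 11 and 10 UMIs. Reads of gene and copy cannot be told apart wherever the letters are the same.

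**Figure D2:**
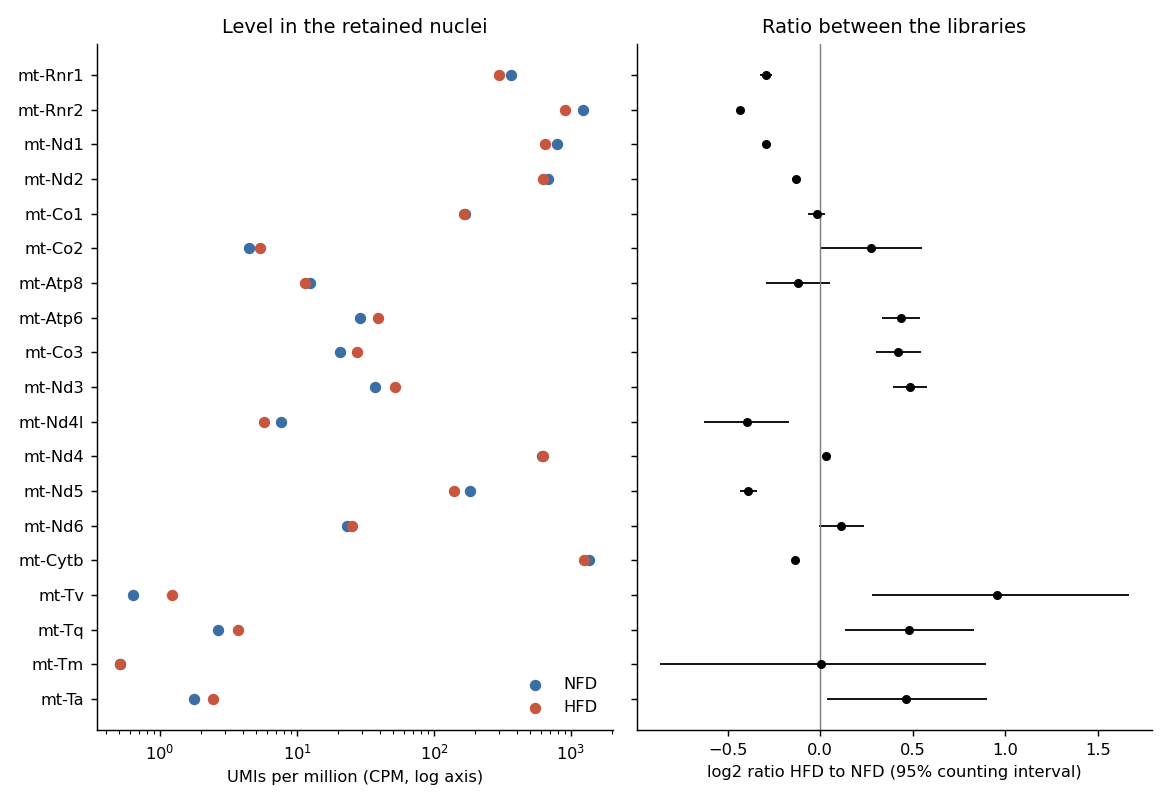
Levels of each rRNA, each mRNA and the 4 tRNAs with the most UMIs are plotted on the left in CPM on a log axis, with NFD in blue and HFD in red, and the log2 ratio of HFD to NFD with its 95% counting interval on the right. Levels span from 0.512 CPM for mt-Tm to 1358 CPM for mt-Cytb, and the rRNAs lie below 0 in the ratio while mt-Atp6, mt-Co3 and mt-Nd3 lie above.

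The tRNAs had little signal. The 4 with the most UMIs are shown with the anticodon in capitals, since 2 of them, mt-Tq and mt-Ta, are encoded on the minus strand and led the class. The gene mt-Tq (chrM:3772-3842, minus) is the tRNA for glutamine, mt-Ta (chrM:5018-5086, minus) for alanine, mt-Tv (chrM:1025-1093, plus) for valine and mt-Tm (chrM:3845-3913, plus) for methionine.
mt-Tq: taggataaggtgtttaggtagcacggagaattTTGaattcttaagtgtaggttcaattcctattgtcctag
mt-Ta: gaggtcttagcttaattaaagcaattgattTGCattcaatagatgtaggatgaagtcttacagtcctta
mt-Tv: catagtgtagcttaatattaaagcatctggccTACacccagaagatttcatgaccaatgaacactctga
mt-Tm: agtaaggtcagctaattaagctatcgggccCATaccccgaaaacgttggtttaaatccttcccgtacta

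In NFD and HFD, mt-Tq had 109 and 202 UMIs, or 0.48 (0.14 to 0.83) on the log2 scale, and mt-Ta had 72 and 132 UMIs, at 0.46 (0.04 to 0.90). With 26 and 67 UMIs, mt-Tv was at 0.95 (0.28 to 1.67), and mt-Tm with 21 and 28 UMIs was at 0.0036 (-0.86 to 0.89). The other 18 tRNAs had 0 to 13 UMIs in NFD and 0 to 35 in HFD. Among them, 11 had a higher and 5 a lower CPM in HFD. Of the 16345 genes with at least 100 UMIs, a count that these 18 did not reach, 6784 were higher and 9561 lower. The 2 at 0 in both libraries, mt-Ty and mt-Ts1, could still be present at up to 0.0731 CPM in NFD and 0.0550 CPM in HFD. Mature tRNAs and longer precursors that span a tRNA cannot be told apart in these counts.

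The minus strand encodes mt-Nd6 and 8 tRNAs, and together they were at 28.3 CPM for NFD against 32.7 for HFD, or 0.21 (0.10 to 0.32). The 28 plus-strand genes had 5491 and 4781 CPM, at -0.20. Minus-strand genes made up 0.513% (0.484% to 0.543%) of all mt- UMIs in NFD and 0.680% (0.649% to 0.712%) in HFD. This part was also largest in nuclei under 0.1% mt-, at 1.56% and 2.03%, against 0.521% and 0.751% at 2% to 5%. Per kilobase of gene the minus-strand genes had 26.5 CPM in NFD and 30.6 in HFD, against 382 and 333 for the plus strand. Of the 1162 NFD and 1786 HFD UMIs of the minus strand, mt-Nd6 held 954 and 1373, and the 8 tRNAs held 208 and 413. The mature form of the tRNAs carries no poly(A) tail. The part of capture in the gap between the strands was not tested.

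Of the 17 members with at least 100 UMIs over both libraries, 3 were lower in HFD by more than 0.32 on the log2 scale (mt-Rnr2, mt-Nd4l and mt-Nd5), or 17.6%, where 13.8% of all 16345 genes with as many UMIs were. Another 5 were higher by as much (mt-Atp6, mt-Co3, mt-Nd3, mt-Tq and mt-Ta), or 29.4%, where 5.57% of all genes were. The median log2 ratio was -0.02 over the 17 members and -0.04 over all genes tested. The other 20 members had too few UMIs for this count. These counts depend on the mitochondrial limit, since 9 of the 17 members were below 0 with it and 0 without it.

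The composition of mt- RNA held its direction better than its level. The rRNAs made up 28.8% (28.6% to 29.0%) of the mt- UMIs in NFD and 25.0% (24.9% to 25.2%) in HFD. Within the cell groups that carry a name, the rRNA share was lower in HFD in 9 of 10, with intervals apart in 6. In GABAergic-like neurons it was 26.1% (25.7% to 26.4%) in NFD and 22.9% (22.6% to 23.2%) in HFD. In serotonergic-like neurons it was 28.7% and 21.6%. In ependymal-like nuclei, the ciliated cells that line the ventricles and the aqueduct, it was 27.7% and 22.6%. Among the named groups the share was highest in astrocyte-like nuclei in both libraries (47.8% and 44.1%), and endothelial-like nuclei had 40.0% and 32.7%. The exception was the pericyte- or fibroblast-like group, at 32.6% and 33.3% from 319 and 102 mt- UMIs.

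**Figure D3:**
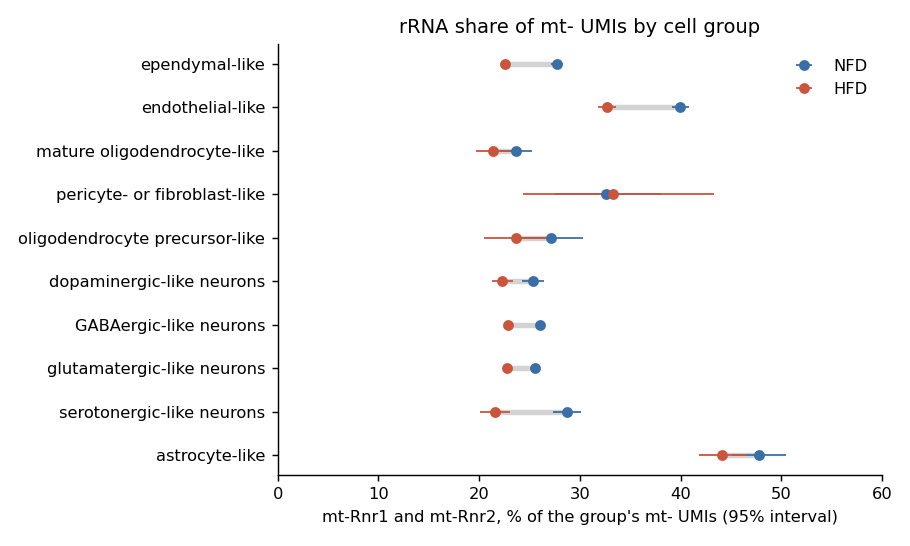
The share of mt-Rnr1 and mt-Rnr2 among the mt- UMIs of each marker-named cell group is plotted in percent, with NFD in blue, HFD in red and 95% intervals. HFD lies below NFD in 9 of 10 groups, with the widest intervals in pericyte- or fibroblast-like nuclei.

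In the 7 unnamed clusters and the granule neuron-like cluster the share did not always have this direction, and it was lower in HFD in 14 of all 18 groups and clusters. In an unnamed cluster led by Cfap299 and Dnah12, genes of cilia, with 277 NFD and 24 HFD nuclei, it was 24.5% in NFD and 29.3% in HFD. In the GABAergic-like neurons it was lower in HFD at each of the depths compared, with 26.1% against 22.8% in nuclei of 4000 to 8000 UMIs and 25.3% against 22.8% in those of 8000 to 16000. In bins of the mitochondrial share of the nucleus it was lower in HFD in 10 of 10, with intervals apart in all 10. After thinning to 2000 UMIs the log2 ratio of the share was -0.16, and in nuclei of 2000 to 8000 UMIs it was -0.13, beside -0.20 as reported.

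Between cell groups the level differed far more than between libraries. In NFD and HFD, ependymal-like nuclei had 59389 and 56375 mt- CPM, endothelial-like nuclei 19212 and 23240, and mature oligodendrocyte-like nuclei 8417 and 9159. Dopaminergic-like neurons had 5416 and 4221 CPM, GABAergic-like neurons 5058 and 3958, and glutamatergic-like neurons 4546 and 3388. Serotonergic-like neurons, which make serotonin in the dorsal raphe beside the vlPAG, had 1997 and 1057 CPM. Astrocyte-like nuclei had 1942 and 2751 CPM. Among the 10 named groups, ependymal-like, endothelial-like and mature oligodendrocyte-like nuclei were the 3 highest in both libraries. Unnamed clusters are left out of this ranking.

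The summed level was lower in HFD in 7 of 10 named groups and higher in 3. It was lower in GABAergic-like neurons at a log2 ratio of -0.35 (-0.37 to -0.34), in glutamatergic-like neurons at -0.42 (-0.44 to -0.41), in dopaminergic-like neurons at -0.36 (-0.41 to -0.31) and in serotonergic-like neurons at -0.92 (-0.99 to -0.85). Median depth in the serotonergic-like neurons was 5987.5 UMIs in NFD and 16070 in HFD. Oligodendrocyte precursor-like nuclei (57 and 47 nuclei) were at -0.76 (-0.91 to -0.61). In ependymal-like nuclei the ratio was -0.075, and it turned with 30 principal components (0.032) and with a limit of 5% (0.049). In the pericyte- or fibroblast-like group it was -2.00, but 2 of the 32 NFD nuclei held 65.8% of its mt- UMIs, and it was -0.55 with a limit of 5%.

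The groups above 0 were endothelial-like (0.27, 0.24 to 0.31), mature oligodendrocyte-like (0.12, 0.04 to 0.20) and astrocyte-like nuclei (0.50, 0.40 to 0.61). In the last, 4 of the 219 HFD nuclei had at least 5% mt- UMIs and held 45.0% of all mt- UMIs, and without such nuclei the ratio was -0.34. The endothelial-like ratio was -0.11 with 30 principal components. The share of the median nucleus was lower in HFD in 8 of 10 groups, astrocyte-like nuclei included (0.0809% and 0.0621%), and higher in endothelial-like (1.27% and 1.88%) and mature oligodendrocyte-like nuclei (0.474% and 0.619%).

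**Figure D4:**
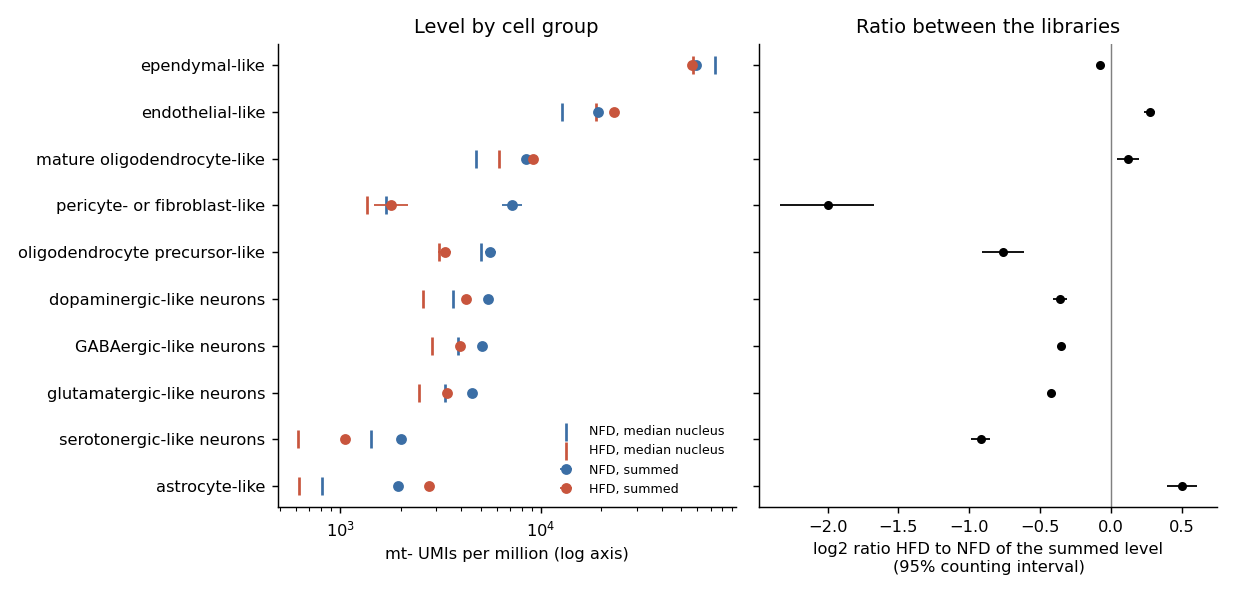
The summed level of all mt- genes in each marker-named cell group is plotted on the left as a point in CPM on a log axis, with the median nucleus as a tick, and the log2 ratio of the summed level with its 95% counting interval on the right. Ependymal-like nuclei are highest in both libraries, the neuron-like groups lie below 0 in the ratio, and astrocyte-like, endothelial-like and mature oligodendrocyte-like nuclei lie above.

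Single RNAs also differed between the groups. In NFD and HFD, mt-Rnr2 had 1003 and 676 CPM in GABAergic-like neurons (-0.57, -0.60 to -0.53), 893 and 577 in glutamatergic-like neurons (-0.63) and 430 and 171 in serotonergic-like neurons (-1.33). It was 6129 and 6040 CPM in endothelial-like nuclei (-0.02, -0.09 to 0.05). Of 10 named groups with enough UMIs, mt-Rnr2 was below 0 in 9, with astrocyte-like nuclei at 0.37 as the exception, and mt-Cytb was below 0 in 6. The gene mt-Nd3 was above 0 in each of the 5 groups where it had 100 UMIs, from 0.095 (-0.083 to 0.27) in glutamatergic-like to 0.98 in endothelial-like nuclei, and mt-Atp6 was above 0 in each of 4. The gene mt-Nd5 was below 0 in each of 6, from -1.26 in serotonergic-like neurons to -0.03 in endothelial-like nuclei.

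Depth also differed between the libraries. Per nucleus, HFD held more mt- UMIs in 8 of 10 groups, with a mean of 39.3 against 31.9 in GABAergic-like neurons, whose median nucleus held 8766.5 UMIs of all genes in HFD and 5392 in NFD. In these neurons the mt- share was lower in deeper nuclei of both libraries. The summed NFD level went from 6603 CPM in nuclei of 2000 to 4000 UMIs to 2926 CPM in those over 16000. The HFD level went from 7722 to 3255 CPM over the same range. At matched depth the log2 ratio was 0.23 at 2000 to 4000 UMIs, -0.09 at 4000 to 8000, -0.25 at 8000 to 16000 and 0.15 over 16000. The bin of 1000 to 2000 UMIs, with 36 NFD and 6 HFD nuclei, was at -0.38 (-0.77 to -0.0080). The sign thus differed between depths, beside -0.35 for the whole group. The part of depth in that ratio was not tested.

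Barcodes at or above the 20% limit were more frequent in HFD, at 7.21% (6.60% to 7.85%) of barcodes over 500 UMIs against 1.63% (1.35% to 1.94%) in NFD, a ratio of 4.43. They held 42.3% of all mt- UMIs of the HFD library and 15.5% of those of NFD. With a limit of 10% the shares were 9.01% and 2.87%, and with 5% they were 10.7% and 4.01%. These barcodes were shallow, with medians of 898 UMIs in HFD and 936.5 in NFD, of which 578 and 633 were not mt-. Their median mt- share was 34.4% in HFD and 27.5% in NFD. Just inside the limit, at 10% to 20%, lay 95 NFD and 123 HFD barcodes, and just outside, at 20% to 30%, lay 72 and 156.

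**Figure D5:**
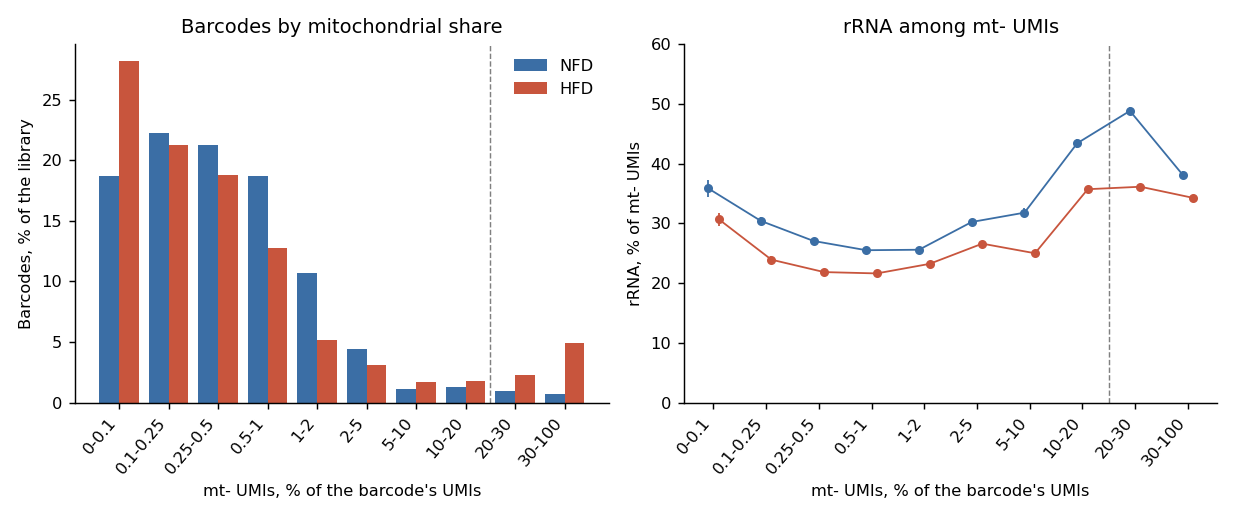
Barcodes over 500 UMIs are binned by their share of mt- UMIs, with the percent of the library's barcodes in each bin on the left and the rRNA share of mt- UMIs with its 95% interval on the right, for NFD in blue and HFD in red, and the 20% limit as a dashed line. HFD has more barcodes in the lowest bin (28.2% against 18.7%) and above 30% (4.92% against 0.682%), and its rRNA share lies below that of NFD in each bin.

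Their nuclear RNA differed from that of the retained nuclei. Per 1000000 UMIs of genes other than mt-, Malat1, a noncoding RNA kept in the nucleus, had 6817 in HFD and 9636 in NFD, against 30310 and 44586 in the retained nuclei. Cytosolic ribosomal protein genes, summed over 89 genes, had 23715 and 27399, against 903 and 1082. When all barcodes over 500 UMIs were clustered without the mt- genes, 484 of the 491 HFD and 118 of the 124 NFD barcodes above the limit fell into 1 cluster. Its leading genes were S100b, Pcp2, Ndrg2, Dbi and Sparc, of which S100b marks astroglia and Pcp2 marks cerebellar Purkinje cells.

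On the same scale, S100b had 6393 in HFD and 2983 in NFD above the limit against 15.8 and 7.42 in the retained nuclei, and Pcp2 had 3110 and 1044 against 7.44 and 1.62. The astrocyte markers summed to 4538 and 3152 against 77.6 and 76.2. The neuron markers were lower than in the retained nuclei, at 1858 and 2130 against 3211 and 2914, but the GABAergic neuron markers were higher, at 956 and 664 against 307 and 317. Mature oligodendrocyte markers, at 599 and 864 against 37.9 and 65.3, and microglia markers, at 107 and 221 against 48.7 and 55.2, were higher as well. Endothelial markers were lower, at 22.6 and 42.2 against 80.6 and 129, from 8 and 4 UMIs above the limit, with 2 of 4 markers at 0 in each library. The cerebellar granule neuron markers were at 161 (122 to 209) in HFD and 73.8 (29.7 to 152) in NFD, against 87.8 and 8.89 in the retained nuclei. The values above the limit came from 57 and 7 UMIs, with 1 and 4 of 5 markers at 0. The part that tissue from outside the vlPAG has in the difference between the libraries was not tested.

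The composition of mt- RNA in these barcodes had more rRNA than that of the retained nuclei, at 43.1% (42.6% to 43.5%) of mt- UMIs in NFD and 34.7% (34.5% to 34.9%) in HFD, and was again lower in HFD. As the limit fixes the range of the mt- share, the summed levels and the counts of members below are given as a description. All mt- genes together were at a log2 ratio of 0.21 in these barcodes, a shift that the ratios of single members include. The mRNAs had 173310 CPM for NFD against 229493 for HFD, or 0.41, and the rRNAs had 131448 and 122297, at -0.10. Of the 15 members with 100 UMIs there, 9 (60%) were higher in HFD by more than 0.32 on the log2 scale, where 27.3% of the 791 genes with as many UMIs were, and 0 were lower, where 30.6% were. The highest were mt-Nd3 at 0.99 (0.80 to 1.19) and mt-Atp6 at 0.96 (0.75 to 1.17), and mt-Rnr2 was the 1 member below 0, at -0.16 (-0.18 to -0.13). Of the tRNAs, 17 had a higher and 2 a lower CPM in HFD, and 3 were at 0 in both. Of the 791 genes with at least 100 UMIs there, a count that no tRNA reached, 378 were higher and 413 lower.

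An unnamed cluster of the retained nuclei, led by S100b, Aldoc and Pcp2, lay just below the limit. Its 81 NFD and 133 HFD nuclei had median mt- shares of 14.7% and 13.99% and medians of 748 and 997 UMIs. The rRNA share there was 52.9% and 39.2%, and mt-Rnr2 had 49910 and 32893 CPM (-0.60, -0.65 to -0.55), while mt-Nd3 was at 1.23 (0.75 to 1.73). Without this cluster the ratio of all mt- genes was -0.26, that of the rRNAs -0.49 and that of the mRNAs -0.19.

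Nuclear genes listed for the synthesis and handling of mitochondrial RNA had low counts and small ratios. The synthesis list has 12 genes and is not limited to RNA synthesis, as it includes Polg, Polg2 and Twnk, which copy the mitochondrial DNA. Of the 12, 4 were above 0 and 8 below, with a median log2 ratio of -0.10 beside -0.04 over all genes tested. Of all 16345 genes tested, 6784 were above 0 and 9561 below. The lowest were Polrmt, the polymerase, with 300 UMIs in NFD and 310 in HFD (-0.36, -0.60 to -0.13), Tfb2m, its initiation factor (-0.26, -0.40 to -0.12), and Mterf1a, a termination factor (-0.26, -0.54 to 0.02). The highest were Polg2, a subunit of the DNA polymerase (0.22, -0.06 to 0.50), Mterf4 (0.06) and Tefm, the elongation factor (0.05). Tfam, which packs the genome and starts transcription, was at -0.10 (-0.26 to 0.06).

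Of the 20 measured genes of processing and decay, 7 were above 0 and 13 below, with a median of -0.11. Over all 16345 genes tested, 6784 were above 0 and 9561 below. The lowest were Fastkd1 with 1391 and 1335 UMIs (-0.47, -0.58 to -0.36), Trmt10c, a subunit of the enzyme that cuts the 5′ ends of tRNAs (-0.35, -0.58 to -0.11), and Fastkd3 (-0.33, -0.65 to -0.01). The highest was Slirp, which with Lrpprc stabilizes the mRNAs, with 992 and 1544 UMIs (0.23, 0.11 to 0.34). Rexo2, which degrades short RNA pieces, was at 0.12 and Elac2, which cuts the 3′ ends of tRNAs, was at 0.08. Lrpprc itself was at 0.0046 (-0.05 to 0.06). By more than 0.32 on the log2 scale, 1 of 12 synthesis genes and 3 of 20 processing genes were lower and 0 of either list were higher, where 13.8% of all genes were lower and 5.57% higher.

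Other RNAs moved beside the members. Malat1 was at 44340 CPM for NFD against 30164 for HFD, or -0.56 on the log2 scale, and the ribosomal protein genes had 1076 and 899 CPM, at -0.26 (-0.28 to -0.24). In the named groups Malat1 was lower in HFD in 9 of 10 and the ribosomal protein genes in 8 of 10. Their part in the mt- values was not tested.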

How the data were processed

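The authors sequenced 1 nuclear library per diet, made reads with bcl2fastq 5.01, and counted UMIs per gene against GRCm38 with Cell Ranger (the notes name bcl2fastq, Cell Ranger, Seurat and GRCm38; the file headers give Cell Ranger 4.0.0). The deposited values are raw UMI counts per gene and barcode, 41180006 for NFD and 55133689 for HFD. From these counts, nuclei over 500 UMIs and under 20% mt- were retained, by the limits that the study's methods state. These limits left 7500 NFD and 6322 HFD nuclei of the 7625 and 6813 barcodes in the files. The study gives 7625 and 6813 analysed cells, so the retained nuclei are not the same set. Nuclei were clustered in Seurat 5.3.0 (R 4.3.3) with the mt- genes taken out of counts, totals and variable genes (2000 variable genes, 20 principal components, resolution 0.5). Clusters were named from marker lists. A cluster stayed unnamed if no class reached its limits or if its leading genes held more markers of another class. Shallow clusters without own markers among the leading genes also stayed unnamed. GABAergic-like and glutamatergic-like names needed markers of that transmitter at 2 times those of the other. A GABAergic-like cluster of 486 NFD and 514 HFD nuclei had 241 against 117 CPM. Non-neuronal names also needed few neuron markers, a rule set after the clusters were seen. Doublets were not removed, except in 1 alternative. UMIs were summed per library or group, with exact Poisson intervals for CPM, conditional binomial intervals for ratios and Clopper-Pearson intervals for shares (95%, scipy 1.17.1). A count of 0 allows up to 3 counts. The ratio step was tested on simulated data. Coordinates, strands and sequences came from GENCODE M21 (GRCm38), where all 37 genes matched, and nuclear copies were found by shared 50-base stretches. Named were every rRNA and mRNA, the 4 tRNAs with the most UMIs, and the 3 highest and 3 lowest of each related list with at least 100 UMIs. Prorp was matched by no symbol and Fastkd5 had 0 UMIs. Genes that carry the text's reasoning, such as leading genes of clusters, were added after their values were seen. The members and lists were chosen with earlier results of these data known.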

Additional observations from a re-analysis of the deposited data

Results flagged for a closer look

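Cell groups of the same comparison went in opposite directions, which was not tested as a difference. The summed mt- level was lower in HFD in the neuron-like groups, but its log2 ratio was 0.50 in astrocyte-like, 0.27 in endothelial-like and 0.12 in mature oligodendrocyte-like nuclei. The astrocyte-like ratio turned to -0.34 with a limit of 5%, where 4 of 219 HFD nuclei had held 45.0% of the mt- UMIs, and the endothelial-like ratio turned to -0.11 with 30 principal components. In the barcodes at or above the 20% limit, the mRNAs had a log2 ratio of 0.41, where the retained nuclei had -0.12. The former are chosen by their mt- share, so this is a description.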

How the results depend on the processing

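With 1 library per diet, intervals cover counting error only, and none of the values can be set against a spread between animals. Low counts limit the tRNA values, and shared sequence limits those of the genes with nuclear copies. No paired analysis was possible because there is 1 library per diet and no test.

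The ratio of all mt- genes (-0.20) turned to 0.018 with each nucleus weighted equally, 0.13 after thinning to 2000 UMIs, 0.45 in nuclei of 2000 to 8000 UMIs and 0.34 with no mitochondrial limit. It moved to -0.37 with a limit of 5%, -0.19 over 1000 UMIs and -0.16 without clusters of over 90% from 1 library. The rRNA ratio (-0.40) turned to 0.32 in nuclei of 2000 to 8000 UMIs and 0.25 with no limit, and moved to -0.11 with equal weights, -0.031 after thinning, -0.58 with a limit of 5%, -0.37 without clusters of over 90% from 1 library and -0.45 with pooled cluster shares. The mRNA ratio (-0.12) turned to 0.076 with equal weights, 0.19 after thinning, 0.50 in nuclei of 2000 to 8000 UMIs and 0.38 with no limit, and moved to -0.29 with a limit of 5%, -0.080 without clusters of over 90% from 1 library and -0.085 with pooled cluster shares. The tRNA ratio (0.54) moved to 0.78 in nuclei of 2000 to 8000 UMIs and 0.99 with no limit. The cause was not tested.

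The next alternatives were chosen after seeing the data. Without the cluster led by S100b, the ratios were -0.26 for all mt- genes, -0.49 for rRNA and -0.19 for mRNA. The log2 ratio of the rRNA share (-0.20) was -0.16 after thinning, -0.13 in nuclei of 2000 to 8000 UMIs, -0.091 with no limit, -0.23 without that cluster and -0.31 in barcodes at or above 20%. It stayed below 0 in all 9 settings run. The minus-strand share (0.41) moved to 0.19 with no limit.

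With no limit, 0 single genes were below 0 instead of 9, and as a share of mt- UMIs 5 were. With no limit mt-Rnr1 turned to 0.36, mt-Rnr2 to 0.22, mt-Nd1 to 0.18, mt-Nd2 to 0.41, mt-Nd4l to 0.072, mt-Nd5 to 0.14 and mt-Cytb to 0.33. In mt-Co1 and mt-Atp8, whose intervals had included 0, the ratio moved to 0.60 and 0.41. As a share of mt- UMIs, mt-Nd2 turned to 0.068 and mt-Cytb to 0.059. The share of barcodes above the limit was 3.14 times as high in HFD at 10% and 2.67 times at 5%, instead of 4.43. Among named groups, astrocyte-like turned to -0.34 and ependymal-like to 0.049 with a limit of 5%, and endothelial-like to -0.11 and ependymal-like to 0.032 with 30 principal components. Of the other group values, 41 stayed within the interval and 11 moved in the same direction, and for dopaminergic-like neurons and mature oligodendrocyte-like nuclei some alternatives gave no such group.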
